A study of Homo sapiens with 8 samples.

Results

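The data below describe 31 genes of cholesterol and fatty acid synthesis and its control, taken by name from the deposited count tables of 2 human prostate cancer lines, PC3 and DU145. All 31 of 31 names were found in both tables, which together list 36779 genes, and all 31 passed the filter on low counts (at least 1 CPM, counts scaled to library size, in at least 2 libraries). RNA was sequenced from cells transfected with a plasmid for circ0003553, a plasmid for circ0004592, or a negative control plasmid. The 2 names stand for circular RNAs (circRNAs), single-stranded RNAs closed into a ring, and the sample titles tie them to RCAN3 and STK3.

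The groups were PC3 with circ0003553 (1 library), PC3 with circ0004592 (1 library), PC3 with the control plasmid (2 libraries, 1 for each circRNA arm), and the same 4 libraries of DU145. Every library, controls included, came from transfected cells. The labels do not say whether libraries came from separate cultures, so the p-values measure the spread between these libraries, which may be technical. Each line is a single established culture, so a difference between the lines is a difference between these 2 lines. The labels describe stranded, rRNA-depleted libraries with molecular identifiers, read from both ends. Totals ran from 33444940 to 49926342 counts per library.

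Cholesterol is built from acetyl-CoA in 2 stretches. The mevalonate steps run to farnesyl diphosphate, and the later steps join 2 of these to squalene, close the ring as lanosterol and trim it to cholesterol. Fatty acid synthesis starts from the same acetyl-CoA: ACLY and ACSS2 supply it, ACACA and FASN build palmitate, and elongases and desaturases such as ELOVL6, SCD, FADS1 and FADS2 change its length and double bonds. Both pathways are driven by the SREBP transcription factors, encoded by SREBF1 and SREBF2, which are held in the endoplasmic reticulum by INSIG1 while sterols are plentiful. Prostate tumours and prostate lines are known for making much of their own lipid.

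The promoters of 5 members are shown because the SREBP factors act at such regions together with NF-Y. INSIG1, HMGCS1 and LSS stand for the feedback regulator, an early and a late step. STARD4 had the largest change in PC3, and SREBF2 was added after its motif was seen. Each run reads 5′ to 3′ along the gene's strand from 250 bases before the start to 50 bases after it (RefSeq, GRCh38.p14). Capitals mark CCAAT or its complement ATTGG, the NF-Y box, and in SREBF2 also one sterol element, TCACNCCAC.
INSIG1, chr7:155297628-155297927, plus strand: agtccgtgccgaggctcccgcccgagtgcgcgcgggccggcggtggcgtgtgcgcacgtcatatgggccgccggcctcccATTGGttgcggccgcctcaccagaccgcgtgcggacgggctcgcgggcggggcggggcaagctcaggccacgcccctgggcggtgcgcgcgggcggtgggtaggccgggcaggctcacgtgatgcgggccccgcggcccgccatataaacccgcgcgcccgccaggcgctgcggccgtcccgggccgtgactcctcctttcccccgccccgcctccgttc
HMGCS1, chr5:43313363-43313662, minus strand: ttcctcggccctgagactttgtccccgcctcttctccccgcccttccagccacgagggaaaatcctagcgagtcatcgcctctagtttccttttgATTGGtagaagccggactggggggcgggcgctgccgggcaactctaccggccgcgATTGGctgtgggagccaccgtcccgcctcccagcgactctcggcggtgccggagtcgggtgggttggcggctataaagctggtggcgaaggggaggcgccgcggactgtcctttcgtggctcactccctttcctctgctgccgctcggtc
LSS, chr21:46228725-46229024, minus strand: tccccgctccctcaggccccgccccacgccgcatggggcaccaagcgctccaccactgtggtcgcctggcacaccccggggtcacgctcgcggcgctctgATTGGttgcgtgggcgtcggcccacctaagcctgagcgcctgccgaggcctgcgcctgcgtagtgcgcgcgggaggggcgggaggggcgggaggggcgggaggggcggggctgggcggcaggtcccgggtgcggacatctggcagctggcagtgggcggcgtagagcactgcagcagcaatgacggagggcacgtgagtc
STARD4, chr5:111512486-111512785, minus strand: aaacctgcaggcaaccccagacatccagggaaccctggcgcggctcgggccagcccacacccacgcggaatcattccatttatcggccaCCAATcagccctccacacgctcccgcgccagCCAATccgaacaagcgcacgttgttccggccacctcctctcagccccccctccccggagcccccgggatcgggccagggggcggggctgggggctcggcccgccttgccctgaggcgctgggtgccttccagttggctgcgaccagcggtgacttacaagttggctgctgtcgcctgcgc
SREBF2, chr22:41832855-41833154, plus strand: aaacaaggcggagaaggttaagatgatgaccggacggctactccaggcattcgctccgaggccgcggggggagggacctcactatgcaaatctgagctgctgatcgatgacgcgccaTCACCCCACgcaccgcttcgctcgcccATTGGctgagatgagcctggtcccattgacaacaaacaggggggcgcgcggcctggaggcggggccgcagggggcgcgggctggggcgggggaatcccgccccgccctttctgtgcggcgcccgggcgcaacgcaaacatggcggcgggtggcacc
RefSeq promoters were matched for 27 of the 31 members, in 39 entries. CCAAT, searched on both strands, stood in 64.1% of these entries, in 21 members, against 34.6% of all 35116 promoters and 34.4% of those of tested genes. The GC box GGGCGG stood in 87.2% of member entries, against 64.5% of promoters of tested genes. The sterol element TCACNCCAC stood in 1 entry, that of SREBF2, with its first base at position -133 from the start, or 2.56% of entries against 1.12% for tested genes. The E-box CACGTG stood in 10.3% of member entries, against 9.14%. These matches describe the letters in a window of 300 bases; no 2 of these motifs overlapped in a member entry, and no binding was measured. Among the printed members, 4 had CCAAT but no exact match to TCACNCCAC in this window, and other forms of the sterol element were not searched. They included INSIG1, lower in both lines with the circRNA plasmids, and STARD4, which moved in opposite directions in the 2 lines. Whether the motifs relate to these changes was not tested.

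The lines themselves set the scale of the data. With the control plasmid, 18 of 31 members were lower in PC3 than in DU145, 10 were higher and 3 did not pass the test, in edgeR's quasi-likelihood fit with Benjamini-Hochberg adjustment. Over all 17869 tested genes 82.5% passed in this comparison, 40.9% lower and 41.6% higher, so the members' share is near the background and the sizes of the changes carry the description. The median change of the members was a log2 of -0.40, against 0.00 over all tested genes. Of the 9 fatty acid genes 7 were lower and 2 higher in PC3, with a median of -1.10. Of the 7 mevalonate genes 5 were lower and 2 higher. Of the 11 genes from squalene to sterol 3 were lower and 5 higher.

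FDFT1, squalene synthase, which commits the pathway to sterols, had 25.0 and 25.5 CPM in the PC3 controls, against 125 and 126 CPM in the DU145 controls. That was a log2 difference of -2.31 ± 0.06 (SE, adjusted p = 7.31e-18), the largest of the members in either direction. FASN, fatty acid synthase, had 33.5 and 31.6 CPM in the PC3 controls, against 102 and 98.0 CPM in the DU145 controls, a difference of -1.62 ± 0.06 (SE, adjusted p = 2.55e-15). HMGCS1, which makes the HMG-CoA that leads to mevalonate, had 66.6 and 65.6 CPM in the PC3 controls, against 197 and 208 CPM in the DU145 controls, a difference of -1.62 ± 0.05 (SE, adjusted p = 3.37e-16). For each of these genes the PC3 controls lay far below the DU145 controls. ACAT2, the thiolase that makes acetoacetyl-CoA, had 26.9 and 29.3 CPM in the PC3 controls, against 78.7 and 83.4 CPM in the DU145 controls, a difference of -1.53 ± 0.06 (SE, adjusted p = 2.37e-14). In the deposited annotation, 43.0% of the exon bases of ACAT2 are shared with SOD2 on the opposite strand, and the strand setting of the counting is not given in the sources used here, so its level may hold SOD2 reads.

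ACSS2, which makes acetyl-CoA from acetate, ran the other way and had 44.4 and 44.6 CPM in the PC3 controls, against 16.7 and 15.6 CPM in the DU145 controls, a difference of 1.46 ± 0.07 (SE, adjusted p = 4.55e-13). SC5D, the lathosterol oxidase near the end of the sterol path, had 57.9 and 59.2 CPM in the PC3 controls, against 22.0 and 24.8 CPM in the DU145 controls, a difference of 1.32 ± 0.07 (SE, adjusted p = 1.06e-12). Neither gene overlapped between the lines. TM7SF2, a sterol reductase, had 3.91 and 4.66 CPM in the PC3 controls, against 2.37 and 1.83 CPM in the DU145 controls, a difference of 1.02 ± 0.21 (SE, adjusted p = 0.000155). MVK, mevalonate kinase, had 30.4 and 29.1 CPM in the PC3 controls, against 17.7 and 17.6 CPM in the DU145 controls, a difference of 0.75 ± 0.08 (SE, adjusted p = 3.00e-08). Along the pathway, neighbouring enzymes differed in opposite directions: FDFT1 was lower in PC3, while SQLE and LSS, the steps that follow it, were higher by 0.59 and 0.54.

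The regulators differed in both directions. INSIG1, the sterol sensor's anchor, had 23.6 and 23.1 CPM in the PC3 controls, against 14.0 and 15.8 CPM in the DU145 controls, a difference of 0.65 ± 0.09 (SE, adjusted p = 1.31e-06). SREBF2, which favours the cholesterol genes, had 32.3 and 33.1 CPM in the PC3 controls, against 55.8 and 53.3 CPM in the DU145 controls, a difference of -0.74 ± 0.06 (SE, adjusted p = 1.32e-09). SREBF1, which favours the fatty acid genes, had 12.4 and 14.2 CPM in the PC3 controls, against 16.3 and 18.8 CPM in the DU145 controls, a difference of -0.40 ± 0.10 (SE, adjusted p = 0.00142). STARD4, a soluble carrier that moves cholesterol between membranes, had 14.0 and 14.8 CPM in the PC3 controls, against 21.1 and 18.9 CPM in the DU145 controls, a difference of -0.47 ± 0.09 (SE, adjusted p = 6.51e-05). By limma on RPKM the difference of SREBF1 did not pass. With all 8 libraries and a block for each arm and plasmid, the line difference of STARD4 was 0.34 (edgeR adjusted p = 0.368). That fit averages over control and circRNA libraries, whose line differences run opposite ways for STARD4. It therefore does not measure the difference of the controls alone. With 1 control library left out, the difference of the controls stayed between -0.56 and -0.39. Of the other members, MVD, IDI1, FDPS, EBP, DHCR7, ACLY, ACACA, ELOVL6, SCD, FADS1 and LPIN1 were lower in PC3, with log2 differences from -1.52 for SCD to -0.33 for FADS1. PMVK (0.67), NSDHL (0.42) and FADS2 (0.25) were higher in PC3. CYP51A1, MSMO1 and HSD17B7 did not pass the test, with differences of 0.01, 0.28 and -0.20. CYP51A1 shares 78.8% of its exon bases with LRRD1 on the same strand, and the 2 rows hold nearly equal counts on average (3261 and 3178), so the level of CYP51A1 cannot be told apart from that of LRRD1.

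Levels between genes were compared on the deposited RPKM scale, counts scaled to gene length and library total. In PC3 controls the highest members were PMVK (52.1 ± 4.35 RPKM), FDPS (33.9 ± 1.08 RPKM) and CYP51A1 (21.9 ± 1.38 RPKM; SD, n = 2 each). CYP51A1, FADS1 and ACLY were not separated beyond their spread in PC3, at 21.9 ± 1.38, 21.5 ± 0.129 and 21.1 ± 0.851 RPKM. In DU145 controls the highest were ACLY (51.7 ± 0.947 RPKM), FDPS (48.4 ± 0.953 RPKM) and SCD (48.2 ± 0.578 RPKM), of which FDPS and SCD lay within their spread of each other. PMVK, phosphomevalonate kinase, ranked 1 in PC3 and 5 in DU145, where it had 32.7 ± 0.749 RPKM. SCD, the desaturase that makes oleate, ranked 3 in DU145 and 7 in PC3, at 16.9 ± 0.112 RPKM. TM7SF2 was last in both lines, at 1.27 ± 0.160 RPKM in PC3 and 0.620 ± 0.115 RPKM in DU145.

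**Figure D1:**
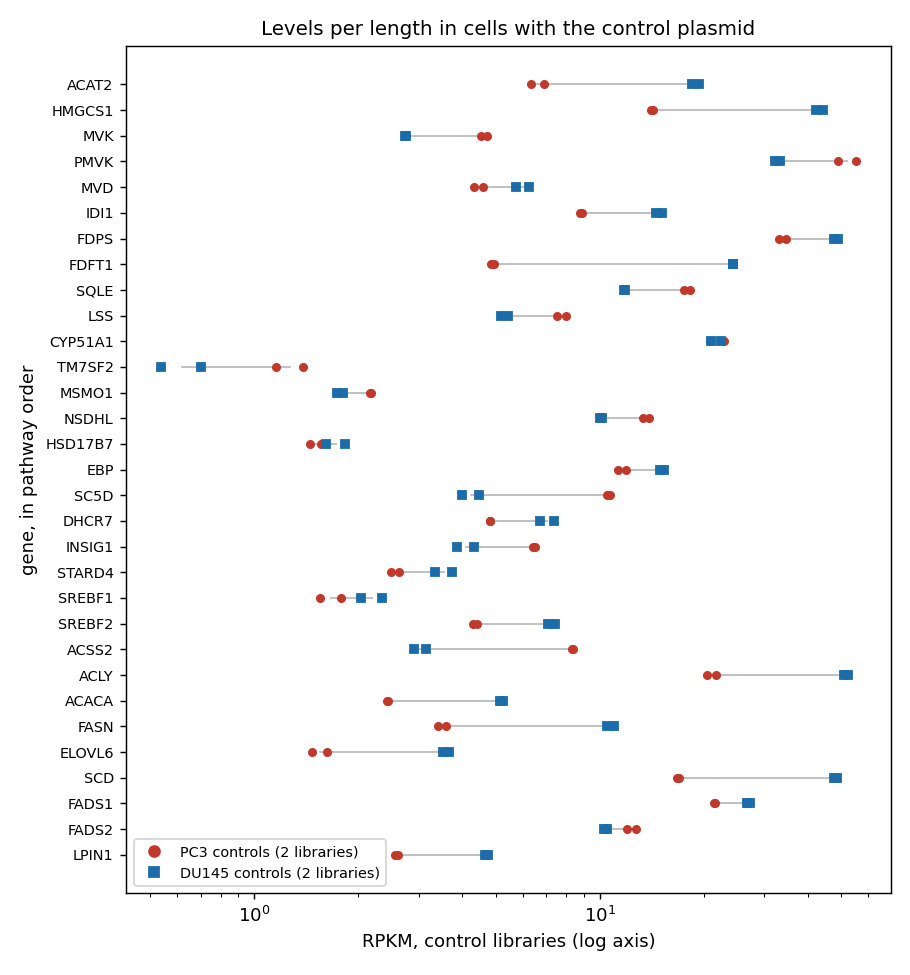
Deposited RPKM of each member on a log axis in the control libraries, genes from top to bottom in pathway order; circles are the 2 PC3 controls, squares the 2 DU145 controls, and the grey line joins the group means. FDFT1 has the widest gap, with 4.90 RPKM in PC3 and 24.3 RPKM in DU145, and TM7SF2 is lowest in both lines.

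Libraries with a circRNA plasmid were set against the control libraries of their line, first with both circRNAs together (2 libraries against 2). The 2 circRNA libraries of a line carried different plasmids, so their difference counted as spread in these p-values. Over all tested genes that difference had a median of 0.12 in absolute log2 in PC3 and 0.19 in DU145. Between the 2 controls of a line the median was 0.10 in each line. In PC3, 7 of 31 members fell and 2 rose, where 20.4% of all tested genes passed, 9.19% lower and 11.2% higher. In DU145, 4 members passed, each of them lower, where 1.05% of all tested genes passed, 0.515% lower and 0.532% higher. The median change of the members was -0.19 in PC3 and -0.18 in DU145, against -0.01 and 0.00 over all tested genes. Most changes were small, and most members did not pass the test in either line. With upper quartile scaling 13 members fell and 1 rose in PC3, where 3922 of all tested genes passed, against 3644 in the main fit. That scaling shifted the log2 changes of all genes in PC3 by a median of -0.06. A list of 12 interferon-stimulated genes summed to 14580 and 14185 CPM with the circRNAs in PC3, against 216 and 219 CPM in the PC3 controls. In DU145 the list summed to 201 and 212 CPM with the circRNAs, against 154 and 149 CPM in the controls. All 12 rose in PC3 (median log2 6.31) and 4 of 12 in DU145 (median 0.58), and their part in the changes of the lipid genes was not tested.

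Counted by library, both circRNA libraries lay below both controls for 21 of 31 members in PC3 (31.7% of all tested genes did) and for 20 in DU145 (19.9% of all tested genes did). Both lay above for 6 members in PC3 (30.9% of all) and for 0 in DU145 (18.7% of all). For 17 members the circRNA libraries lay below the controls in both lines, as for 6.74% of all tested genes. Among these were ACAT2, MVK, MVD, IDI1 and FDPS of the mevalonate steps, FDFT1, SQLE, LSS and SC5D of the sterol steps, INSIG1 and SREBF1 of the regulators, and ACSS2, ACLY, ACACA, SCD, FADS1 and FADS2 of the fatty acid genes. PMVK, TM7SF2, SREBF2 and FASN lay below in PC3 and overlapped in DU145. HMGCS1, DHCR7 and STARD4 lay above in PC3 and below in DU145. HSD17B7, ELOVL6 and LPIN1 lay above in PC3 and overlapped in DU145, and CYP51A1, MSMO1, NSDHL and EBP overlapped in both.

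**Figure D2:**
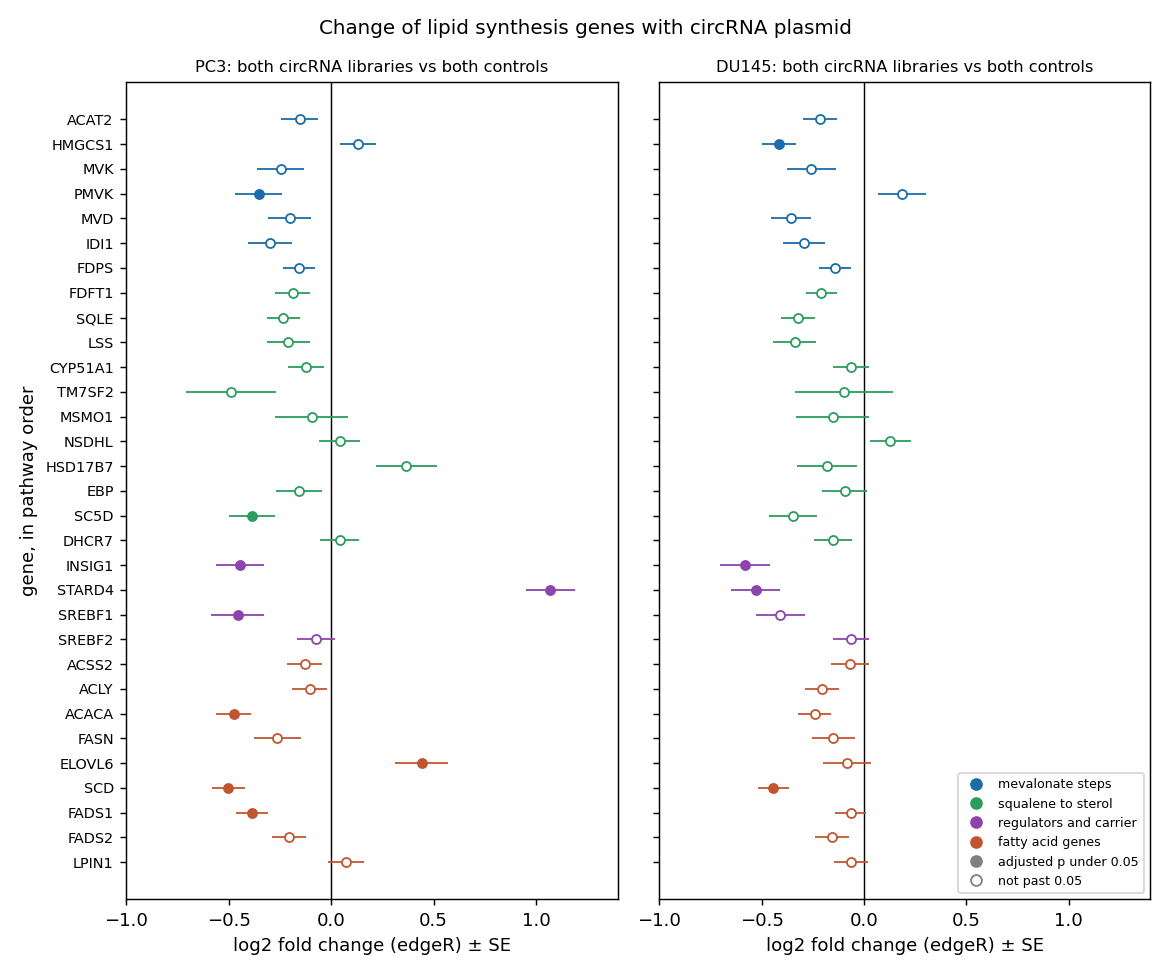
Log2 fold change (edgeR, ± SE) of each member with both circRNA libraries against both controls, PC3 left and DU145 right, genes in pathway order; filled points passed an adjusted p under 0.05. STARD4 stands at 1.07 in PC3 and -0.53 in DU145, while SCD and INSIG1 lie below 0 in both lines.

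The summed CPM of the 31 members was 1335 with circ0003553 and 1376 with circ0004592 in PC3, against 1562 and 1534 in the PC3 controls. In DU145 it was 1974 and 2035, against 2299.8 and 2328 in the controls. The 18 genes from mevalonate to sterol summed to 660.4 and 701 CPM with the circRNAs in PC3, against 769.6 and 755 CPM in the controls. In DU145 the same 18 genes summed to 884 and 893 CPM, against 1018 and 1038 CPM. The 9 fatty acid genes summed to 590.5 and 582 CPM in PC3, against 710.3 and 694 CPM in the controls. In DU145 they summed to 1002 and 1052 CPM, against 1174 and 1183 CPM. In these sums both circRNA libraries lay below both controls in each line. The 4 genes of regulation and transport (INSIG1, STARD4, SREBF1 and SREBF2) summed to 83.9 and 92.6 CPM with the circRNAs in PC3, against 82.4 and 85.2 CPM in the controls, and the groups overlapped. In DU145 these 4 summed to 88.2 and 90.1 CPM, against 107.2 and 106.8 CPM in the controls, with both circRNA libraries lower. In bulk RNA, fewer cells of a kind and less RNA per cell cannot be told apart.

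Along the mevalonate steps, PMVK was the 1 of 7 genes that fell in PC3 and HMGCS1 the 1 of 7 that fell in DU145, where 9.19% and 0.515% of all tested genes fell. HMGCS1 (chr5:43289395-43313512 in the deposited tables, hg38, minus strand) had 162 CPM with circ0003553 and 141 CPM with circ0004592, against 197 and 208 CPM in the DU145 controls, a change of -0.42 ± 0.08 (SE, adjusted p = 0.0247). In PC3 it had 70.3 CPM with circ0003553 and 74.6 CPM with circ0004592, against 66.6 and 65.6 CPM in the PC3 controls, a change of 0.13 ± 0.09 (SE, adjusted p = 0.322) that did not pass the test. The groups were apart in both lines, lower with the circRNAs in DU145 and slightly higher in PC3. A gene on the opposite strand, CTD-2636A23.2, shares 15.0% of the exon bases of HMGCS1 and changed by -0.43 in DU145 (adjusted p = 0.0312). PMVK had 52.4 CPM with circ0003553 and 50.9 CPM with circ0004592, against 70.0 and 62.1 CPM in the PC3 controls, a change of -0.35 ± 0.12 (SE, adjusted p = 0.0391). In DU145 it had 40.0 CPM with circ0003553 and 55.2 CPM with circ0004592, against 40.9 and 42.5 CPM in the DU145 controls, a change of 0.19 ± 0.12 (SE, adjusted p = 0.560), and there only the circ0004592 library was above the controls. The other 5 were ACAT2, MVK, MVD (the decarboxylase that makes isopentenyl diphosphate), IDI1 (its isomerase) and FDPS (farnesyl diphosphate synthase). Their changes ranged from -0.30 for IDI1 to -0.15 for ACAT2 in PC3, and from -0.36 for MVD to -0.14 for FDPS in DU145, and none passed the test.

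From squalene to sterol, 1 of 11 genes fell in PC3 and 0 of 11 passed in DU145 by edgeR, shares near those of all tested genes (9.19% fell in PC3 and 1.05% passed in DU145). At an unadjusted p under 0.05, 4 of the 11 were lower in DU145, where 2213 of all 17869 tested genes differed in either direction. By DESeq2 1 of the 11 passed there, where 280 of all genes did. SC5D had 42.3 CPM with circ0003553 and 47.3 CPM with circ0004592, against 57.9 and 59.2 CPM in the PC3 controls, a change of -0.39 ± 0.11 (SE, adjusted p = 0.0211). In DU145 it had 20.9 CPM with circ0003553 and 15.7 CPM with circ0004592, against 22.0 and 24.8 CPM in the DU145 controls, a change of -0.35 ± 0.12 (SE, adjusted p = 0.223), which did not pass although both circRNA libraries were below both controls. SQLE, squalene epoxidase, a rate-controlling step, had 41.6 CPM with circ0003553 and 39.2 CPM with circ0004592, against 50.6 and 50.7 CPM in the DU145 controls, a change of -0.32 ± 0.08 (SE, adjusted p = 0.0800), also short of the threshold. HSD17B7, a sterol ketoreductase, had 7.33 CPM with circ0003553 and 8.54 CPM with circ0004592, against 6.40 and 5.92 CPM in the PC3 controls, a change of 0.37 ± 0.15 (SE, adjusted p = 0.0969). A near copy, HSD17B7P2, had 55.6 counts on average and could share its reads. TM7SF2 had log2 values of -0.49 in PC3 and -0.10 in DU145, with an SE of 0.22 and 0.24, the widest of the 11. FDFT1 and LSS had values of -0.19 and -0.21 in PC3 and of -0.21 and -0.34 in DU145. The demethylating enzymes CYP51A1, MSMO1 and NSDHL, the isomerase EBP and the last reductase DHCR7 lay between -0.16 (EBP) and 0.04 (NSDHL and DHCR7) in PC3 and between -0.15 (MSMO1 and DHCR7) and 0.13 (NSDHL) in DU145. None of these passed the test.

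INSIG1 fell in both lines. It had 16.0 CPM with circ0003553 and 18.4 CPM with circ0004592, against 23.6 and 23.1 CPM in the PC3 controls, a change of -0.44 ± 0.12 (SE, adjusted p = 0.0129), and 10.9 CPM with circ0003553 and 8.82 CPM with circ0004592, against 14.0 and 15.8 CPM in the DU145 controls, a change of -0.58 ± 0.12 (SE, adjusted p = 0.0309). SREBF1 had 8.87 CPM with circ0003553 and 10.5 CPM with circ0004592, against 12.4 and 14.2 CPM in the PC3 controls, a change of -0.46 ± 0.13 (SE, adjusted p = 0.0171). In DU145 it had 13.5 CPM with circ0003553 and 12.8 CPM with circ0004592, against 16.3 and 18.8 CPM in the DU145 controls, a change of -0.41 ± 0.12 (SE, adjusted p = 0.140) that did not pass the test, with both circRNA libraries below both controls. SREBF2 had 30.4 CPM with circ0003553 and 31.7 CPM with circ0004592, against 32.3 and 33.1 CPM in the PC3 controls, a change of -0.07 ± 0.09 (SE, adjusted p = 0.635), and 48.3 CPM with circ0003553 and 56.4 CPM with circ0004592, against 55.8 and 53.3 CPM in the DU145 controls, a change of -0.06 ± 0.09 (SE, adjusted p = 0.847). Neither value of SREBF2 passed the test.

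STARD4 (chr5:111496033-111512590, minus strand) gave the largest change of any member in PC3 and the only one with opposite calls in the 2 lines. In PC3 STARD4 had 28.7 CPM with circ0003553 and 32.0 CPM with circ0004592, against 14.0 and 14.8 CPM in the PC3 controls, a change of 1.07 ± 0.12 (SE, adjusted p = 3.45e-06), or a mean 2.10 times that of the controls. In DU145 it had 15.4 CPM with circ0003553 and 12.1 CPM with circ0004592, against 21.1 and 18.9 CPM in the DU145 controls, a change of -0.53 ± 0.12 (SE, adjusted p = 0.0414), or a mean 0.690 times that of the controls. The circRNA libraries of PC3 were above every other library of either line, and those of DU145 lay near the PC3 controls. STARD4-AS1, on the opposite strand, shares 2.18% of the exon bases of STARD4. It had 7.85 and 9.88 CPM with the circRNAs in PC3, against 4.75 and 5.61 CPM in the controls, a change of 0.78 (adjusted p = 0.00411). In DU145 STARD4-AS1 had 3.61 and 2.74 CPM, against 4.19 and 4.84 CPM in the controls, a change of -0.49 (adjusted p = 0.290). Without the control of the circ0003553 arm or without the circ0004592 library of PC3, the change of STARD4-AS1 in PC3 was 0.58 to 0.64 and did not pass (adjusted p from 0.0749 to 0.0978).

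Of the 9 fatty acid genes, 3 fell and 1 rose in PC3, where 20.4% of all tested genes passed, and 1 fell in DU145, where 1.05% passed. SCD fell in both: it had 62.1 CPM with circ0003553 and 64.5 CPM with circ0004592, against 90.2 and 89.2 CPM in the PC3 controls, a change of -0.50 ± 0.08 (SE, adjusted p = 0.000160), and 195 CPM with circ0003553 and 184 CPM with circ0004592, against 254 and 260.0 CPM in the DU145 controls, a change of -0.44 ± 0.08 (SE, adjusted p = 0.00723). ACACA, acetyl-CoA carboxylase, which commits carbon to fatty acids, had 22.9 CPM with circ0003553 and 22.2 CPM with circ0004592, against 31.5 and 31.2 CPM in the PC3 controls, a change of -0.48 ± 0.09 (SE, adjusted p = 0.000593). In DU145 ACACA had 58.6 CPM with circ0003553 and 55.2 CPM with circ0004592, against 66.3 and 68.1 CPM in the DU145 controls, a change of -0.24 ± 0.08 (SE, adjusted p = 0.203), which did not pass with both circRNA libraries below both controls. FADS1, a desaturase of polyunsaturated fatty acids, had 166 CPM with circ0003553 and 167 CPM with circ0004592, against 217 and 219 CPM in the PC3 controls, a change of -0.39 ± 0.08 (SE, adjusted p = 0.00128), and 261 CPM with circ0003553 and 264 CPM with circ0004592, against 276 and 272 CPM in the DU145 controls, a change of -0.06 ± 0.08 (SE, adjusted p = 0.803). ELOVL6, which lengthens palmitate, was the fatty acid gene that rose in PC3, where it had 14.5 CPM with circ0003553 and 16.0 CPM with circ0004592, against 10.7 and 11.8 CPM in the PC3 controls, a change of 0.44 ± 0.13 (SE, adjusted p = 0.0218). In DU145 ELOVL6 had 27.7 CPM with circ0003553 and 21.3 CPM with circ0004592, against 25.4 and 26.7 CPM in the DU145 controls, and the groups overlapped. FASN had 27.7 CPM with circ0003553 and 26.5 CPM with circ0004592, against 33.5 and 31.6 CPM in the PC3 controls, a change of -0.26 ± 0.11 (SE, adjusted p = 0.115), and 77.8 CPM with circ0003553 and 103 CPM with circ0004592, against 102 and 98.0 CPM in the DU145 controls, a change of -0.15 ± 0.10 (SE, adjusted p = 0.613). ACSS2, ACLY, FADS2 and LPIN1, a phosphatidate phosphatase, had log2 values of -0.13, -0.11, -0.21 and 0.07 in PC3. In DU145 the same genes had -0.07, -0.20, -0.16 and -0.06. None of these values, nor those of FASN, passed the test.

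**Figure D3:**
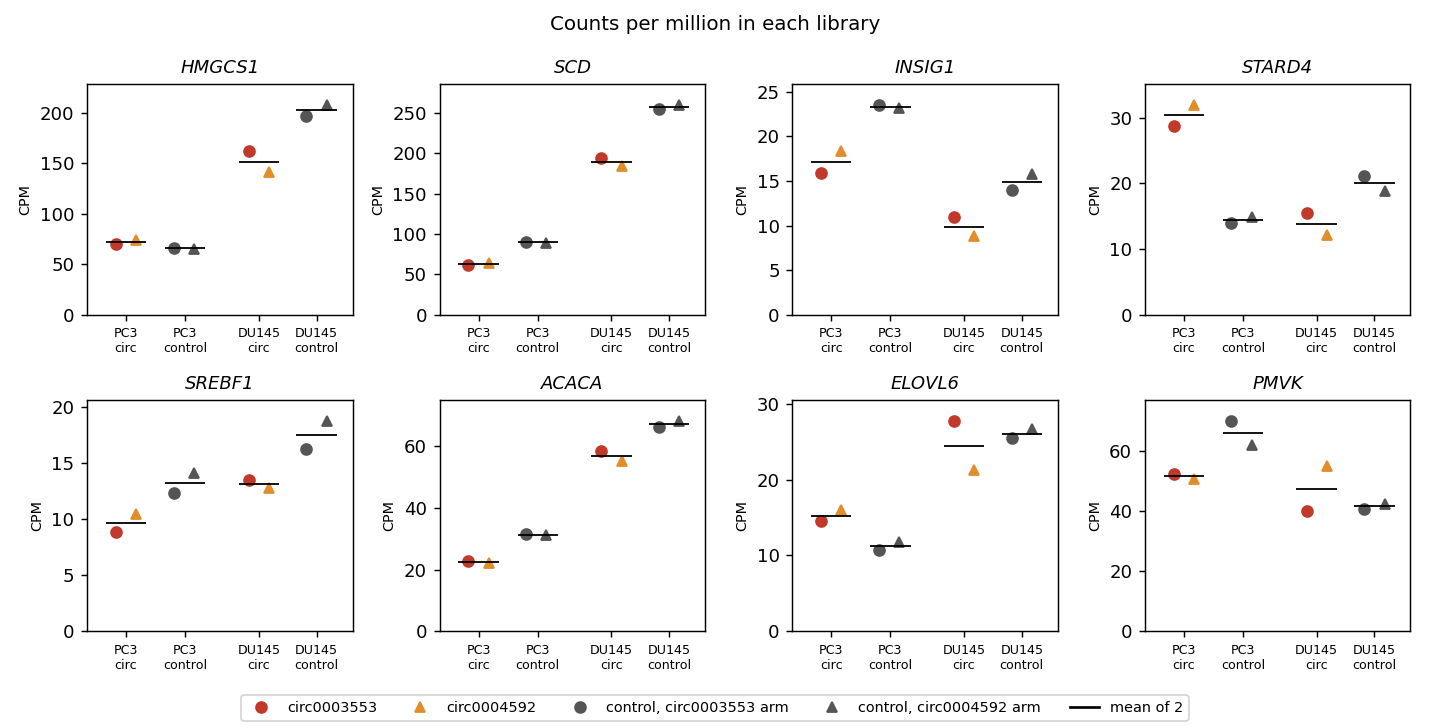
CPM of 8 members in all 8 libraries, on a linear axis from 0; in each panel the circRNA libraries of a line stand left of its controls, circles are the circ0003553 arm, triangles the circ0004592 arm, and bars the mean of 2 libraries. The STARD4 panel shows 28.7 and 32.0 CPM in the PC3 circRNA libraries, against 14.0 and 14.8 CPM in the PC3 controls, and the reverse order in DU145.

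These calls differed in how far they rested on single libraries. In PC3 the calls of STARD4, SCD, ACACA and FADS1 passed with each library left out in turn (adjusted p at most 0.000786, 0.00682, 0.0132 and 0.0182). SC5D and ELOVL6 did not pass with any 1 PC3 library left out (adjusted p from 0.0522 to 0.205 and from 0.0704 to 0.195). PMVK did not pass without the control of the circ0003553 arm or without either circRNA library (adjusted p from 0.158 to 0.251). INSIG1 did not pass without either control or without the circ0003553 library (adjusted p from 0.0501 to 0.156), nor did SREBF1 without the control of the circ0004592 arm or the circ0003553 library (adjusted p from 0.144 to 0.177). In DU145 no call passed without either DU145 control, where SCD had adjusted p = 0.140 to 0.208. HMGCS1, INSIG1 and STARD4 of DU145 also did not pass without any 1 PC3 library (adjusted p from 0.0643 to 0.0732, 0.0603 to 0.0739 and 0.0753 to 0.103). The number of members called in PC3 was lower without any 1 PC3 library, and higher without either circRNA library of DU145. In DU145 that number was lower without either DU145 control or any 1 PC3 library, and higher without either circRNA library of DU145. In each of these fits the number called over all tested genes moved the same way, so these shifts are not particular to the members. ELOVL6 in PC3 also did not pass with upper quartile scaling, nor did STARD4 in DU145 with that scaling or a filter of 5 CPM. By limma on RPKM the calls of STARD4, SCD, ACACA and FADS1 in PC3 passed, while those of PMVK, SC5D, INSIG1, SREBF1 and ELOVL6 in PC3 and of all 4 members in DU145 did not.

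Whether the change itself differed between the lines was tested as an interaction. It passed for 3 of 31 members, 2 higher and 1 lower in PC3 relative to DU145, where 12% of all tested genes passed, 7.08% higher and 4.9% lower. STARD4 differed by 1.60 ± 0.17 (SE, adjusted p = 3.24e-06) on the log2 scale, and this passed with each library left out (1.44 to 1.77). HMGCS1 differed by 0.55 ± 0.12 (SE, adjusted p = 0.00558). It did not pass without the control of the circ0004592 arm of DU145 or of PC3, or without the circ0004592 library of PC3 (0.48 to 0.50, adjusted p from 0.0553 to 0.0628). PMVK differed by -0.54 ± 0.16 (SE, adjusted p = 0.0401), and did not pass in 5 cases, without either DU145 control, the circ0003553 control of PC3 or either circRNA library of PC3 (adjusted p from 0.0900 to 0.154). For members that passed in 1 line only, such as ACACA (-0.24, adjusted p = 0.227), FADS1 (-0.32, adjusted p = 0.0610) and ELOVL6 (0.53, adjusted p = 0.0615), edgeR did not show a difference between the lines. DESeq2 called that of FADS1 (-0.34, adjusted p = 0.0152). By limma the differences of HMGCS1 and PMVK did not pass and that of STARD4 did. More members passed without the circ0003553 or the circ0004592 library of DU145, and fewer without any 1 other library. The number that passed over all tested genes moved the same way. INSIG1 and SCD, which fell in both, differed by 0.14 ± 0.17 (SE, adjusted p = 0.695) and -0.06 ± 0.11 (SE, adjusted p = 0.808).

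Each circRNA was then set alone against both controls of its line, 1 library against 2. No circRNA library has a replicate here, so the p-values and SEs take the spread from the controls and assume that the lone library varies like them. A difference called in these comparisons is one between that library and its controls, with no replicate check of the plasmid. The comparisons of a line share these controls, so their counts are given side by side. With circ0003553 in PC3, 16 members fell and 2 rose, where 28.2% of all tested genes passed, 12.6% lower and 15.6% higher. With circ0004592 in PC3, 11 fell and 3 rose, where 24.8% of all tested genes passed, 11.7% lower and 13.2% higher. With circ0003553 in DU145, 14 passed and each was lower, where 10.5% of all tested genes passed, 6.3% lower and 4.24% higher. With circ0004592 in DU145, 9 fell and 1 rose, where 9.89% of all tested genes passed, 4.65% lower and 5.24% higher. DESeq2 called 9 members with circ0003553 and 6 with circ0004592 in PC3, and 5 and 6 in DU145. Limma called 7 and 4 in PC3, and 0 and 0 in DU145. Both tools also called fewer of all tested genes than edgeR in each of these comparisons. For circ0003553 in DU145 the count was lower without either DU145 control, as was the count over all tested genes. By stage, 4 of 7 mevalonate, 5 of 11 sterol and 5 of 9 fatty acid genes fell with circ0003553 in PC3, and 5, 3 and 4 of them in DU145. With circ0004592 the numbers that fell were 2, 3 and 5 in PC3 and 2, 2 and 2 in DU145.

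In PC3 STARD4 rose with each plasmid, by 0.99 ± 0.10 (SE, adjusted p = 4.67e-07) with circ0003553 and by 1.15 ± 0.10 (SE, adjusted p = 5.31e-08) with circ0004592. The next largest changes with circ0003553 were those of TM7SF2 (-0.73 ± 0.26 SE, adjusted p = 0.0421) and SREBF1 (-0.58 ± 0.14 SE, adjusted p = 0.00362). TM7SF2 had 2.58 CPM with circ0003553 and 3.53 CPM with circ0004592, against 3.91 and 4.66 CPM in the PC3 controls, and without the control of the circ0004592 arm its change was -0.63 and did not pass (adjusted p = 0.137). With circ0004592 they were ELOVL6 (0.51 ± 0.11 SE, adjusted p = 0.00195) and ACACA (-0.50 ± 0.08 SE, adjusted p = 0.000147). The calls of TM7SF2 and SREBF1 with circ0003553, and of ELOVL6 with circ0004592, did not pass by DESeq2 or limma, while that of ACACA passed by both. SCD fell with each plasmid in PC3, with changes of -0.53 and -0.48. HSD17B7 rose with circ0004592 (0.47 ± 0.16 SE, adjusted p = 0.0346), and this did not pass without either DU145 control or without the PC3 control of the circ0004592 arm (adjusted p from 0.0527 to 0.130), nor with upper quartile scaling, no filter, DESeq2 or limma.

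In DU145 INSIG1 was among the 3 largest changes past the threshold with each plasmid, and the other two differed. With circ0003553 the largest changes were in LSS, lanosterol synthase, which had 26.4 CPM with circ0003553 and 34.4 CPM with circ0004592, against 38.9 and 37.5 CPM in the DU145 controls (-0.54 ± 0.08 SE, adjusted p = 0.000249, for circ0003553), MVK, which had 12.8 CPM with circ0003553 and 16.9 CPM with circ0004592, against 17.7 and 17.6 CPM in the DU145 controls (-0.46 ± 0.10 SE, adjusted p = 0.00605), and INSIG1 (-0.44 ± 0.11 SE, adjusted p = 0.0159). MVK did not pass without the DU145 control of the circ0003553 arm (-0.45, adjusted p = 0.0517), and INSIG1 did not pass without that of the circ0004592 arm (-0.36, adjusted p = 0.125). With circ0004592 they were in INSIG1 (-0.75 ± 0.12 SE, adjusted p = 0.000866), STARD4 (-0.72 ± 0.11 SE, adjusted p = 0.000569) and SC5D (-0.58 ± 0.10 SE, adjusted p = 0.00119), which passed without either control. DESeq2 did not call MVK with circ0003553, while it called LSS with circ0003553 and SC5D with circ0004592. For INSIG1 with either plasmid and STARD4 with circ0004592 it gave no adjusted p, so it offers no check of these. PMVK rose with circ0004592 (0.41 ± 0.08 SE, adjusted p = 0.00307). SCD and HMGCS1 fell with each plasmid in DU145, with changes of -0.40 and -0.32 for circ0003553 and of -0.49 and -0.52 for circ0004592.

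The 2 circRNA libraries of a line, 1 library on each side, were set side by side as values with no test. The median absolute log2 difference of the members between circ0003553 and circ0004592 was 0.12 in PC3 and 0.17 in DU145, against 0.12 and 0.19 over all tested genes. In PC3 MSMO1 and TM7SF2, at a few CPM, had the most negative values (-0.45 and -0.44), and MVD the most positive (0.19). In DU145 PMVK (-0.46), FASN (-0.41) and MVK (-0.39) had the most negative values. SC5D (0.41), ELOVL6 (0.38) and MSMO1 (0.37) had the most positive values in DU145. FASN had 77.8 CPM with circ0003553 and 103 CPM with circ0004592 there.

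Set against the control of its own arm alone, which gives a value and no test, each circRNA library showed most members below 0. In PC3 24 of 31 members were below 0 with circ0003553 and 22 with circ0004592, with medians of -0.22 and -0.16 on the log2 scale. In DU145 27 and 26 of 31 were below 0, with medians of -0.21 and -0.14. The median over all tested genes was within 0.01 of 0 in each case. Over the members, the 2 controls of a line differed by a median of 0.06 in absolute log2 in each line. The largest difference was 0.25 in PC3 and 0.36 in DU145, both for TM7SF2. The members below 0 in all 4 circRNA libraries were the 17 already named as below both controls in both lines, which that order fixes for the own-arm control. Over all tested genes 9.88% were below 0 in all 4 and 9.6% above 0 in all 4, against 0 members above 0 in all 4.

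**Figure D4:**
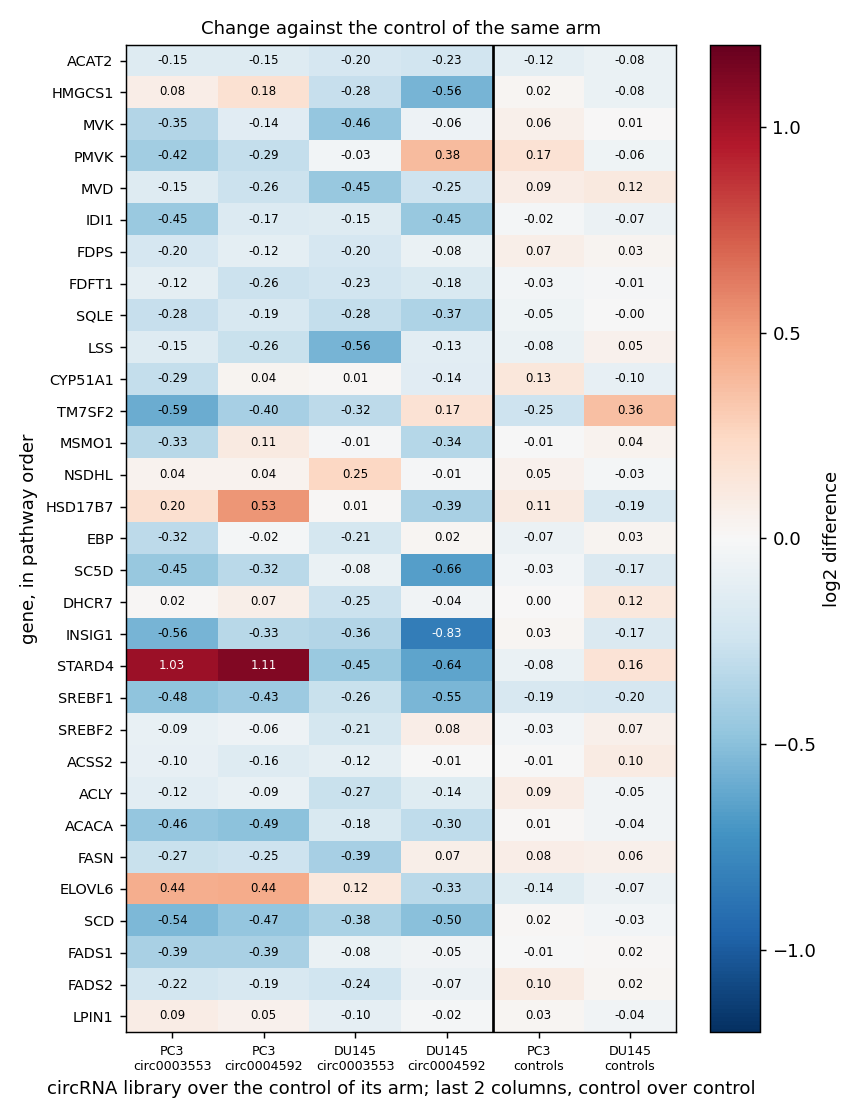
Log2 difference of each member between a circRNA library and the control of its arm, from log CPM with a prior count of 2; the first 4 columns are the circRNA libraries, the last 2 the control of the circ0003553 arm over that of the circ0004592 arm. STARD4 reads 1.03 and 1.11 in PC3, against -0.45 and -0.64 in DU145, and the control columns stay within 0.25 in PC3 and 0.36 in DU145.

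Other genes of lipid handling were read from lists chosen by function. Of the 10 genes that process the SREBP proteins, 4 passed in PC3, each of them lower, against 9.19% of all tested genes lower, and 0 passed in DU145, where 1.05% of all did. PAQR3 (-0.39 ± 0.11 SE, adjusted p = 0.0188), a Golgi anchor of the SREBP escort, ERLIN2 (-0.33 ± 0.09 SE, adjusted p = 0.0162) and ERLIN1 (-0.27 ± 0.09 SE, adjusted p = 0.0400) had the largest changes, and each failed to pass with several single libraries left out (adjusted p up to 0.110, 0.138 and 0.290). Of the 12 genes of sterol transport and storage, 4 rose in PC3, against 11.2% of all tested genes, and 0 passed in DU145. LIPA, the lysosomal lipase that frees cholesterol from its esters, had 43.7 CPM with circ0003553 and 40.5 CPM with circ0004592, against 10.6 and 9.86 CPM in the PC3 controls, a change of 2.04 ± 0.11 (SE, adjusted p = 1.20e-10), and 14.9 CPM with circ0003553 and 12.9 CPM with circ0004592, against 12.3 and 12.5 CPM in the DU145 controls. STARD5, a relative of STARD4, had 2.21 CPM with circ0003553 and 2.55 CPM with circ0004592, against 0.503 and 1.14 CPM in the PC3 controls, a change of 1.53 ± 0.34 (SE, adjusted p = 0.00324), which did not pass without the control of the circ0003553 arm (1.04, adjusted p = 0.0699). GRAMD1B, a cholesterol carrier at membrane contacts, rose in PC3 by 0.72 ± 0.08 (SE, adjusted p = 4.37e-06). The remaining calls of these lists, named after their values were seen, were MBTPS1, a protease that cuts the SREBP proteins (-0.24 ± 0.08 SE, adjusted p = 0.0482), and SOAT1, which esterifies cholesterol (0.46 ± 0.10 SE, adjusted p = 0.00297). MBTPS1 did not pass with any 1 control or PC3 circRNA library left out (adjusted p up to 0.267), nor SOAT1 without the PC3 control of the circ0003553 arm (adjusted p = 0.0564).

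Of the 13 genes that use isoprenoids, 5 rose and 1 fell in PC3, against 11.2% and 9.19% of all tested genes, led by GGPS1 (0.44 ± 0.11 SE, adjusted p = 0.0113), DHDDS (0.40 ± 0.09 SE, adjusted p = 0.00337) and COQ2 (0.37 ± 0.12 SE, adjusted p = 0.0317). With single libraries left out these reached adjusted p = 0.141, 0.0737 and 0.213. FNTB, FNTA and NUS1, named after their values were seen, changed by 0.35, 0.29 and -0.34, with adjusted p up to 0.162, 0.308 and 0.186 when 1 library was left out. Of the 18 other fatty acid genes tested, 2 rose and 1 fell in PC3, a share below the 20.4% of all tested genes that passed, among them ACSL3, which activates fatty acids (0.59 ± 0.10 SE, adjusted p = 0.000265), and ELOVL5, an elongase (-0.44 ± 0.08 SE, adjusted p = 0.000742). TECR (0.38 ± 0.12 SE, adjusted p = 0.0370) was the other that rose, with adjusted p up to 0.495 when 1 library was left out. In DU145 1 of the 18 rose, HSD17B12 (0.52 ± 0.12 SE, adjusted p = 0.0425), where 0.532% of all tested genes rose. HSD17B12 did not pass with several single libraries left out, nor with a replicate block for line and arm. Of 8 genes of glycerolipid assembly 1 fell in PC3, where 9.19% of all tested genes fell, and 0 passed in DU145, where 1.05% of all did. The gene that fell was GPAM, the first acyltransferase. In PC3 GPAM had 12.7 CPM with circ0003553 and 12.5 CPM with circ0004592, against 20.2 and 21.0 CPM in the PC3 controls, a change of -0.71 ± 0.12 (SE, adjusted p = 0.000337). Of 8 tested LXR targets and oxysterol enzymes, NR1H3 rose in PC3 (0.34 ± 0.12 SE, adjusted p = 0.0480), a share near the 11.2% of all tested genes that rose. In DU145 0 of the 8 passed, where 1.05% of all tested genes did. With any 1 of the controls or PC3 circRNA libraries left out NR1H3 did not pass (adjusted p from 0.0960 to 0.261), nor with any other scaling, filter, tool or block tried. The replicate block also ended the calls of ERLIN1 and MBTPS1. By limma, of the genes named from these lists, LIPA, GRAMD1B, DHDDS, ERLIN2, ELOVL5 and GPAM passed in PC3. With upper quartile scaling COQ2, FNTA and TECR did not pass, without the filter COQ2, FNTA and FNTB did not, with the filter of 5 CPM TECR did not, and by DESeq2 COQ2 did not. The counts of 0 in DU145 are from edgeR. At an unadjusted p under 0.05, 4 of the 51 genes tested in these 5 lists differed there, where 2213 of all 17869 tested genes did. By DESeq2 0 of the 51 passed, where 280 of all genes did. CH25H, which makes 25-hydroxycholesterol, had 2 counts in 1 library (PC3 with circ0004592) and 0 in the others, under the 3 read pairs (6 counts) taken as the limit of detection.

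Other features of the libraries moved with the plasmids. SOD2, which overlaps ACAT2, had 598 and 545 CPM with the circRNAs in PC3, against 263 and 250.3 CPM in the controls, while ACAT2 had a log2 value of -0.15 there. RCAN3, which the titles name for the circ0003553 arm, had 44.6 CPM with that plasmid in PC3, against 33.0 and 29.5 CPM in the controls, and 36.9 CPM in DU145, against 20.8 and 18.2 CPM. STK3, named for the circ0004592 arm, had 19.5 CPM with that plasmid in PC3, against 7.65 and 9.13 CPM, and 33.8 CPM in DU145, against 28.7 and 26.1 CPM. These gene-level counts do not tell a ring from the linear RNA.

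CTNNA1, an adhesion gene known to be lost in PC3, had 3.88 to 4.65 CPM in PC3 and 391 to 427 CPM in DU145, and 5 epithelial markers summed to 1054 and 1028 CPM with circ0003553 and circ0004592 in PC3, against 1308 and 1270.5 CPM in the controls. In DU145 they summed to 3422 and 4488 CPM, against 3516 and 3356 CPM in the controls. Of these 5, KRT19, a keratin, was the only one that passed in PC3 (-0.77, edgeR adjusted p = 5.91e-05), at a mean 0.587 times that of the controls. There 4 of the 5 were below 0. In DU145 1 of the 5 passed, lower, and the other 4 were above 0. CDH1 had 43.1 and 40.9 CPM with the circRNAs in DU145, against 62.3 and 64.6 CPM in the controls. Over all tested genes 9.19% fell in PC3 and 0.515% in DU145. The markers of leukocytes (3 of 4 listed in the deposited counts), fibroblasts (3 of 4) and hepatocytes (2 of 3) summed to less than 1 CPM in every library. None of them passed the filter. Markers of endothelium (3 of 3) summed to 5.44 to 6.12 CPM in PC3 and 0.395 to 0.679 CPM in DU145, and those of adipocytes (2 of 3) to 3.92 to 6.31 CPM in PC3 and 0.837 to 1.16 CPM in DU145, lower with the circRNAs in PC3 (3.93 and 3.92 against 6.31 and 5.67 CPM). The androgen axis markers (3 of 4) summed to 21.6 and 21.6 CPM with the circRNAs in PC3, against 17.6 and 16.5 CPM in the controls, and to 17.8 and 21.4 CPM in DU145, against 22.7 and 22.9 CPM. The part of these markers in the results was not tested.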

How the data were processed

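The 8 libraries were total RNA of the lines PC3 and DU145, rRNA-depleted and stranded, per the labels' protocols. The deposited tables hold raw read counts per gene and RPKM per gene, in a pair of tables for each circRNA arm. Per the submitters' processing notes, the authors used Trimmomatic 0.36, featureCounts of Subread 1.5.1, edgeR 3.12.1 and hg38; the aligner, annotation, strand setting and handling of molecular identifiers are not given in the sources used here. The deposited RPKM values equal count per length and column total with no further scaling. Of 36779 genes 5511 stood in 1 count table, with at most 14 counts, and were given 0 in the other.

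Counts were tested with edgeR 4.0.16 (quasi-likelihood F test, TMM factors, R 4.3.3) on 17869 genes with at least 1 CPM in at least 2 libraries; adjusted p is Benjamini-Hochberg over these, threshold 0.05. CPM were scaled with the TMM factors. A fit of 6 groups (2 residual degrees of freedom) gave the line and single-circRNA comparisons; a fit of 4 groups (4 residual degrees of freedom) gave both circRNAs together and the difference between lines. SE is the absolute log2 change over the square root of F. Tested on simulated data for both circRNAs in PC3 (17569 genes), the fit recovered 100 of 100 genes changed by a log2 of 1 and 70 of 100 changed by 0.5, with 10 false calls. The changed genes were drawn from those with a mean of at least 5 CPM, and both circRNA libraries were given the same changes. Recovery of lower genes, and in the other comparisons, was not simulated.

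Low counts (1 to 20) were even in 64.9% to 66.1% of cases per library, so 3 read pairs (6 counts, 0.117 to 0.184 CPM) were taken as the limit of detection, for counting error only. Alternatives were DESeq2 size factors, upper quartile scaling, DESeq2 1.42.0, no filter, 5 CPM, limma 3.58.1 on log2(RPKM + 0.1), a block for line and arm, and each library left out. The members and lists were chosen with earlier results of these data known. The members named in full were those with the largest changes past the threshold in each comparison (4 per direction between lines, 6 for both circRNAs, 3 for each circRNA, 4 for the line difference by p), with INSIG1, SREBF1 and SREBF2 always; of each list, up to 3. Figures used matplotlib 3.10.9; tables Python 3.11.15, pandas 2.3.3 and numpy 2.4.6.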

Additional observations from a re-analysis of the deposited data

Results flagged for a closer look

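The change with a circRNA plasmid differed between the lines, by the test of that difference, for 3 of 31 members and 11 other lipid genes. These 11 were 8 of the 51 genes tested in 5 of the lists and 3 of the 18 other fatty acid genes. Over all tested genes 12% passed this test, so these shares are near the background. Values are log2 in PC3 minus log2 in DU145. Among the members STARD4 (1.60, edgeR adjusted p = 3.24e-06) and HMGCS1 (0.55, adjusted p = 0.00558) moved up in PC3 relative to DU145. PMVK moved the other way (-0.54, adjusted p = 0.0401). In sterol transport and storage, LIPA (1.87, adjusted p = 1.08e-07), STARD5 (2.12, adjusted p = 0.00462) and GRAMD1B (0.70, adjusted p = 0.000303) were higher in PC3 relative to DU145. STARD5 had 2.21 CPM with circ0003553 and 2.55 CPM with circ0004592, against 0.503 and 1.14 CPM in the PC3 controls, and 1.29 CPM with circ0003553 and 1.22 CPM with circ0004592, against 2.10 and 1.67 CPM in the DU145 controls, levels of a few CPM.

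In the processing of the SREBP proteins, PAQR3 (-0.55, adjusted p = 0.0242) and ERLIN2 (-0.39, adjusted p = 0.0492) were lower in PC3 relative to DU145. Of the isoprenoid genes, GGPS1 (0.56, adjusted p = 0.0221) and DHDDS (0.40, adjusted p = 0.0474) were higher. Of the fatty acid and glycerolipid genes, ACSL3 (0.79, adjusted p = 0.000834) was higher, while ELOVL5 (-0.44, adjusted p = 0.0166), HSD17B12 (-0.52, adjusted p = 0.0484) and GPAM (-0.71, adjusted p = 0.00878) were lower. With each library left out in turn, STARD4, LIPA, STARD5, GRAMD1B, ACSL3 and GPAM passed every time; the other 8 failed at least 1 time, HMGCS1 at adjusted p up to 0.0628, PMVK 0.154, PAQR3 0.0993, ERLIN2 0.174, GGPS1 0.153, DHDDS 0.246, ELOVL5 0.0863 and HSD17B12 0.153. DHDDS also did not pass with any other scaling, filter, tool or block that was tried. By limma on RPKM, of these 14 only STARD4, LIPA and GRAMD1B passed. With a replicate block for line and arm ERLIN2 and HSD17B12 did not pass, GGPS1 did not without the filter, and HSD17B12 did not by DESeq2.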

How the results depend on the processing

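The main counts of members past the threshold were 28 between the lines, 9 and 4 for both circRNAs in PC3 and DU145, 18 and 14 for circ0003553 and circ0004592 in PC3, 14 and 10 in DU145, and 3 for the line difference. Between the lines every alternative gave 27 or 28. For both circRNAs in PC3, upper quartile scaling gave 14 and limma on RPKM 5, where 3922 and 2493 of all genes passed, against 3644 in the main fit. Leaving out 1 library moved this count in both directions. For both circRNAs in DU145, limma gave 0, where 3 of all genes passed, against 187 in the main fit. The count was lower without any 1 control or PC3 circRNA library, and higher without either circRNA library of DU145. For circ0003553 DESeq2 gave 9 in PC3 and 5 in DU145, limma 7 and 0, and leaving out 1 control 15 to 18 and 6 to 16. For circ0004592 DESeq2 gave 6 and 6, limma 4 and 0, and leaving out 1 control 13 to 14 and 8 to 12. For the line difference, more members passed without either circRNA library of DU145, and fewer without any 1 other library. In every comparison where leaving out 1 library moved the count, the count over all tested genes moved the same way. The line difference of STARD4 was -0.47 in the controls and 0.34 (edgeR adjusted p = 0.368) with all 8 libraries and a block. The latter fit averages over control and circRNA libraries, so it does not measure the difference of the controls alone. With 1 control library left out, the difference of the controls stayed between -0.56 and -0.39. The cause of the other shifts was not tested, beyond fewer libraries in each fit that leaves one out. A lone sample is then assumed to vary like the other groups. Of the values of single genes under alternatives, 3062 kept their side of the threshold, 317 lost it, 93 gained it and 1 reversed. The reversed value was that of STARD4 in the fit of all 8 libraries.

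The arm numbers did not pair the libraries: the deviations of libraries of the same arm correlated at 0.0479 in PC3 and 0.0203 in DU145. A replicate block for line and arm gave 9, 4 and 3 members for both circRNAs in PC3, in DU145 and for the line difference. Among the other lipid genes it ended the calls of ERLIN1, MBTPS1 and NR1H3 in PC3, of HSD17B12 in DU145, and of the line difference for DHDDS, ERLIN2 and HSD17B12. Upper quartile scaling shifted the median of all genes by at most -0.07 in log2 and DESeq2 size factors by at most 0.0147. Genes of a few CPM, such as TM7SF2 and STARD5, rest on few read pairs, and 2 libraries a group limit every call.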

Other observations

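The genes whose profile was most like that of the 18 genes from mevalonate to sterol were CDH1, RRM1-AS1, BAIAP2-AS1, MUS81 and UBE2G2. Likeness was Pearson's r of log2 CPM with the mean of those genes over the 8 libraries, each centred within its line, among 7384 genes with a mean of at least 20 CPM. The values ran from 0.969 for UBE2G2 and MUS81, through 0.970 for BAIAP2-AS1 and 0.971 for RRM1-AS1, to 0.977 for CDH1. They describe the order of 7384 genes over 8 libraries of 2 lines and carry no test. CDH1 reached the mean of 20 CPM through DU145 only, and its PC3 part rests on values near 1 CPM. CDH1, the epithelial cadherin, had 43.1 CPM with circ0003553 and 40.9 CPM with circ0004592 in DU145, against 62.3 and 64.6 CPM in the controls. In PC3 CDH1 had 0.736 and 0.973 CPM, against 1.06 and 1.17 CPM in the controls. MUS81, a DNA repair nuclease subunit, had 24.5 and 29.4 CPM with the circRNAs in PC3, against 31.1 and 32.6 CPM, and 39.0 and 42.2 CPM in DU145, against 54.5 and 51.4 CPM.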
